A study of Ovis aries with 13 samples.

Results

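Cytokines and chemokines are secreted proteins through which immune and tissue cells signal, and Toll-like receptors (TLRs) are pattern receptors that recognise microbial products and molecules released by damaged cells. Their probes were picked from a sheep array by name. A probe was taken if the gene name in the file, or the gene reached through its RefSeq identifiers, began with IL and a digit, CCL, CXCL, CCR, CXCR, IFN or TLR, leaving out a pair of genes not analysed here. This gave 37 genes, read by 67 of 15008 probes (0.446%). Of these probes 54 were found by both routes, 8 by the gene name only and 5 by a RefSeq identifier only. Over the whole array 1027 genes had a probe with a single gene name. That count leaves out TLR6 and IFNT, whose probes reach several genes. The set held 16 probes for 9 TLRs, 24 probes for 14 interleukins (with IL1RN, the interleukin-1 receptor antagonist), 8 probes for 4 chemokines, 6 for 3 chemokine receptors, 8 for 4 cytokine receptors and 5 for 3 interferons. The rule used no measured value, but the members were chosen with earlier results of these data known.

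RNA came from left ventricle of sheep, with 6 fetal samples taken at gestational day 142 and 7 newborn samples taken at postnatal day 1, 1 array each. No treatment or genotype separates the groups in the labels, and the fetal group had 2 females and 4 males while the newborn group had 4 females and 3 males. The pieces of ventricle hold every cell type of the heart wall, so fewer cells of a type and less RNA per cell cannot be told apart. Several samples of a group carry the same animal number with different letters. An animal number was shared by fetal 1 and 6, by fetal 3 and 5, by newborn 1 and 7, and by newborn 2, 4 and 5. The labels do not explain it, so p-values measure the spread between these samples, which may not all be independent. Precision is limited throughout by having 13 arrays, and fewer animal numbers than arrays.

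Interleukin 1 beta (IL1B) is an early inflammatory cytokine, made after TLRs bind their ligands and signal through MyD88 to NF-kappa-B. IL1RN blocks its receptor. CXCL1 and CXCL8 draw in neutrophils, CCL25 and CCL28 guide lymphocytes to gut and other mucosae through CCR9 and CCR10, and type I interferons act through IFNAR1 and IFNAR2. In the heart, resident macrophages and endothelial cells are among the known sources of these factors, and cardiomyocytes themselves carry TLR4.

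On each array between 9407 and 10713 of the 15008 probes were well above background, the mark the scanner software gives a spot that is clearly brighter than its background. The 75th percentile of the processed signal, to which each array was scaled, lay between 219 and 367. The arrays lay on 2 slides that both held both groups. Of the 77 negative control spots of an array, 0 or 1 carried the mark. Myoglobin (MB), the oxygen store of heart muscle and the only cardiomyocyte marker of the list with a named probe, was well above background on all 13 arrays. A log2 level below is the signal relative to the 75th percentile of its array, so 0 is that percentile.

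Most of the 37 genes were dim in this tissue. Of the 67 probes 11 (16.4%) were well above background on all 13 arrays, against 58.4% of all probes. At least 6 arrays marked 21 probes, against 68.3% of all probes reaching 6. Of these 10 carried the mark on 6 to 12 arrays, and a further 13 on 1 to 5 and 33 (49.3%) on no array, against 22.3% of all probes. By the best probe of each gene, 8 genes were marked on all 13 arrays, 6 on 6 to 12, 8 on 1 to 5 and 15 on no array. The median GC content of the probes was between 41.7% and 43.3% in these classes.

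The 8 genes marked on every array were the interferon receptor chains IFNAR1 and IFNAR2, the interleukin-13 receptor chain IL13RA1, the chemokines CXCL1 and CCL25, the receptor CCR10, and TLR3 and TLR6. The 6 genes marked on 6 to 12 arrays were IL1B, IL3, CXCL8, IFNG (interferon gamma), TLR4 and TLR7. The 8 genes on 1 to 5 arrays were CCR9, IL2RA, IL1A, IL1RN, IL10, IL12A, IL15 and TLR2. The 15 genes without a mark on any array were the chemokine CCL28, the receptor CCR3, the interferons IFN1 and IFNT, the interleukins IL2, IL4, IL5, IL6, IL7, IL12B and IL13, and TLR1, TLR5, TLR8 and TLR9. A missing mark says only that the signal was not well above background there.

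**Figure D1:**
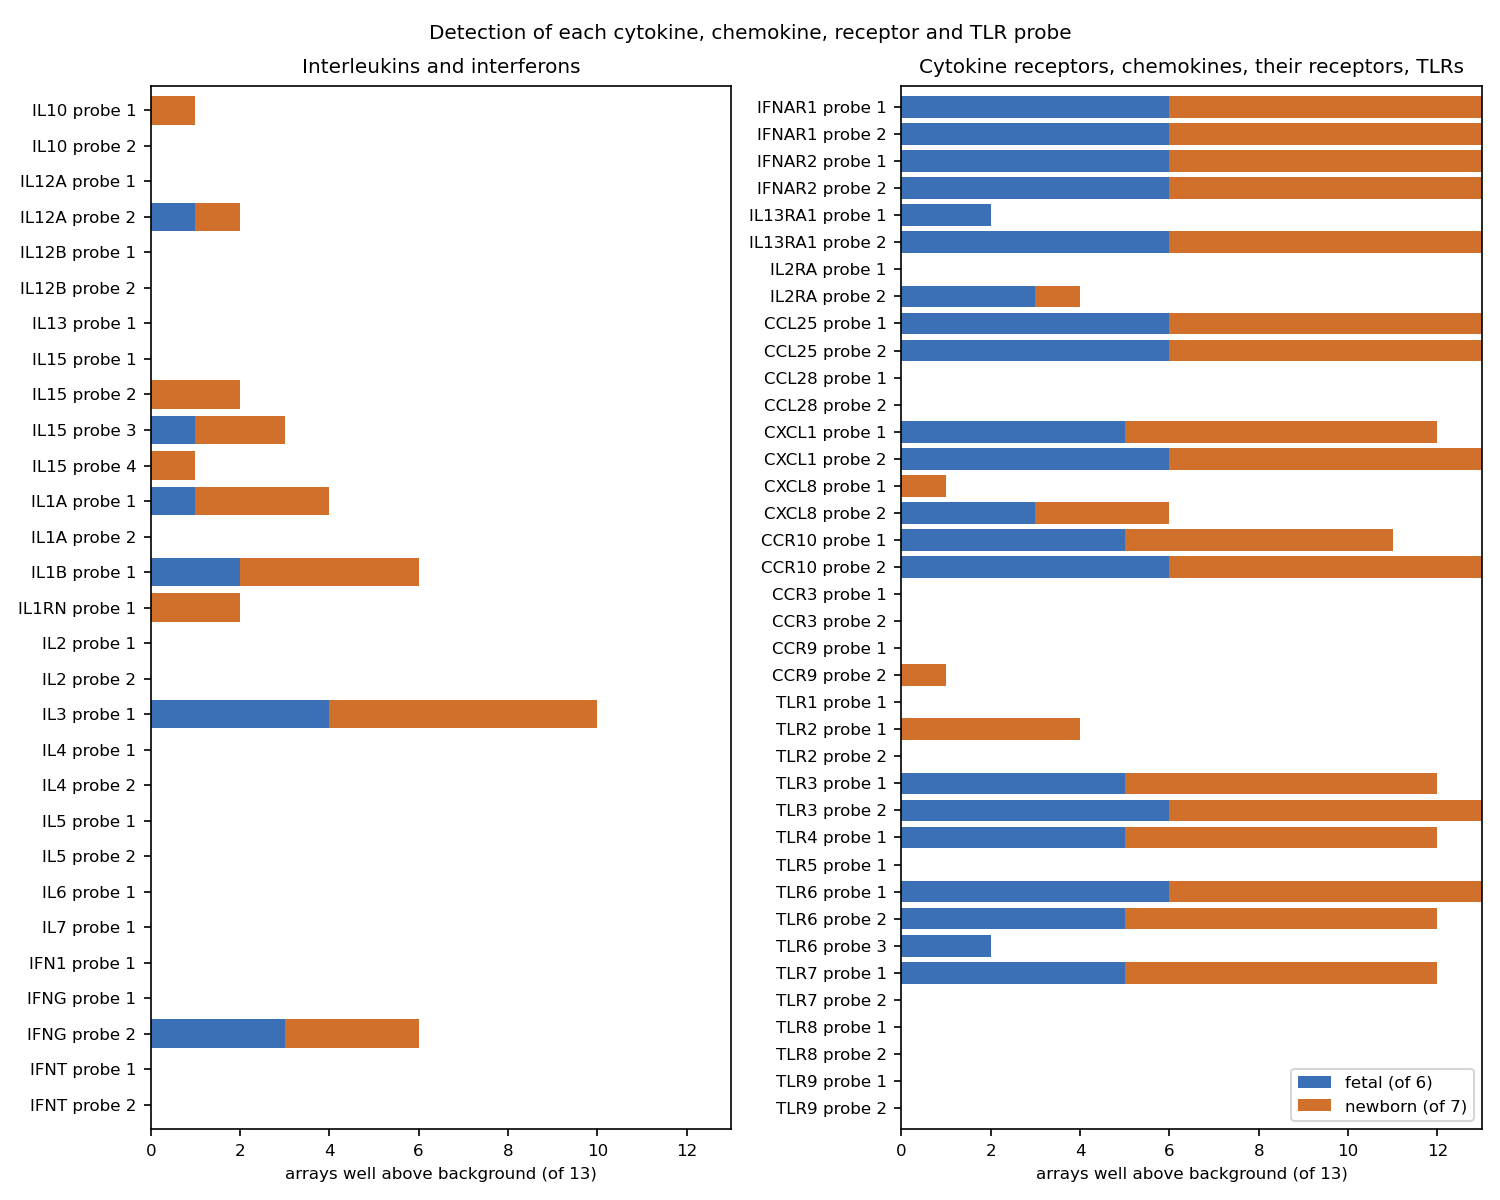
Number of arrays, of 6 fetal and 7 newborn, on which each of the 67 probes was well above background, by probe, with fetal arrays in blue and newborn arrays in orange. Interleukins and interferons stand on the left, where no probe reaches 13 arrays, and the other genes on the right, where 11 do.

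The number of marked probes overlapped between the groups. An array had 16 to 25 marked probes of the 67 in the fetal group (mean 19.67 ± 3.615, SD, n = 6) and 17 to 26 in the newborn group (21.86 ± 3.338, SD, n = 7), with a two-sided exact permutation p of 0.2791. Of the 67 probes 7 were marked on newborn arrays only and 2 on fetal arrays only, and over all probes these shares were 2.77% and 2.99%. All of these member probes were marked on 1 to 5 arrays. That class held 19.4% of the 67 probes and 9.38% of all probes, so the comparison is not between like probes.

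Most of these genes were read by more than 1 probe, with 25 genes at 2 probes, 1 at 3 and 1 at 4. Probes are 60 bases long, written 5′ to 3′ as in the array files, and capitals mark the run that both probes of a gene share. The files give no genome position for them. The CXCL1 pair is shown for its very high signal and near identity, the TLR7 and IL13RA1 pairs for how their readings compare, TLR4 as a detected receptor, and IL1RN and TLR2 for marks on newborn arrays only.
CXCL1 probe 1: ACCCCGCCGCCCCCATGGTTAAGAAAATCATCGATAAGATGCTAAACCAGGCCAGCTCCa
CXCL1 probe 2: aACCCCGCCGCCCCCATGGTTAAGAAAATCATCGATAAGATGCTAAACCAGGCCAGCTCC
TLR7 probe 1: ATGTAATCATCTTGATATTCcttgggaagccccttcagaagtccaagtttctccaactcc
TLR7 probe 2: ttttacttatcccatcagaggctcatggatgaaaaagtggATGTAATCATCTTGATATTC
TLR2 probe 1: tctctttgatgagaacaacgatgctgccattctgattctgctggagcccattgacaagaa
TLR2 probe 2: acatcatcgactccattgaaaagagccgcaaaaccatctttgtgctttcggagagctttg
TLR4 probe 1: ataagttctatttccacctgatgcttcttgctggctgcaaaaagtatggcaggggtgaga
IL13RA1 probe 1: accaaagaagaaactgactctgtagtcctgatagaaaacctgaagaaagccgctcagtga
IL13RA1 probe 2: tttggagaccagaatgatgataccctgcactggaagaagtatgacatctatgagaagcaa
IL1RN probe 1: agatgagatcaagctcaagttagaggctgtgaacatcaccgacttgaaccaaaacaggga

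The CXCL1 probes share 59 bases and are shifted by 1 base, so they are nearly the same measurement. The TLR7 probes share 20 bases, and probe 1 was marked on 12 arrays while probe 2 was marked on 0. IL13RA1 probe 2 was marked on all 13 arrays and probe 1 on 2, both fetal. Over the set there were 34 pairs of probes of the same gene, of which 22 share a run of at least 15 bases and 6 are shifted by 1 base. In the 7 pairs with both probes tested, the log2 changes differed by 0.0031 to 0.19. Overlapping probes share their target and are not replicates. The TLR6 probes also list an accession of TLR1, so these readings may hold both receptors.

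The change from fetal to newborn was tested for the 21 probes, of 14 genes, marked on at least 6 arrays, with limma over all 10255 probes that met this filter. IL1B alone passed an adjusted p of 0.05, and it rose in the newborn group. It only just met the filter of 6 arrays, with 2 fetal and 4 newborn arrays marked. Most of its marks thus came from newborn arrays, so the filter and the difference are not independent. The call is 1 of 21 probes, against 23.1% of all tested probes in either direction (12% higher and 11.1% lower in newborns). Of the 21 probes 17 had a higher and 4 a lower newborn mean, and over all tested probes 53.5% had a higher one. The 21 probes hold 7 pairs that read the same gene, so they are not separate readings and this count repeats genes. The median log2 change was 0.23, against 0.03 for all tested probes. At an unadjusted p under 0.05 there were 3 probes, against 37.8% of all tested probes. No tested probe had every newborn array above, or every newborn array below, every fetal array, against 3.38% and 3.51% of all tested probes.

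**Figure D2:**
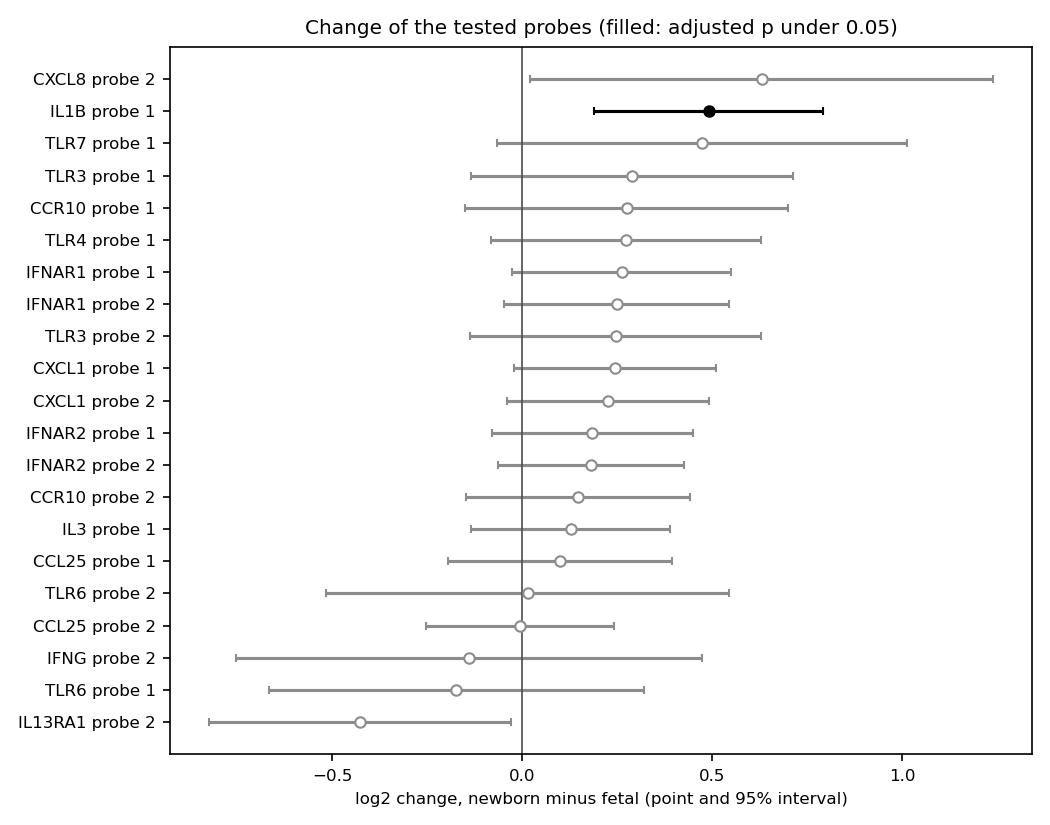
Log2 change, newborn minus fetal, of the 21 tested probes, with the point for the limma estimate and the bar for its 95% interval. Only the IL1B point is filled, for an adjusted p under 0.05, and 17 points lie above 0.

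IL1B was a dim probe on both sides of birth. Its 5 spots gave log2 levels of -5.07 at the lowest, -4.76 at the median and -4.57 at the highest fetal array, and of -4.63, -4.30 and -3.85 in newborns. Of the newborn arrays 5 of 7 lay above every fetal array, and the groups overlapped through newborns 1 and 5. The change was 0.49 on the log2 scale (SE 0.141, 95% interval 0.19 to 0.79, adjusted p 0.0226 in limma), a 1.41-fold higher mean. Before scaling, the processed signal had a median of 10.99 and reached 14.7 in fetal arrays, and had a median of 14.8 and reached 18.2 in newborn arrays, and only 2 fetal and 4 newborn arrays were well above background. The change was 0.43 within slide 1 and 0.53 within slide 2, and neither passed alone. With normexp background correction on each array's median background it was 0.18 (adjusted p 0.147), and on each spot's background 0.01 (adjusted p 0.9998). Without fetal 2 the adjusted p was 0.0525, and without fetal 5 it was 0.0553.

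On fetal arrays IL1RN and TLR2 probe 1 never reached the mark, so the fetal level is only a bound. Marks on 2 and 4 arrays fell short of the filter of 6, which left both untested. The other probes marked on newborn arrays only had a newborn mean below the fetal bound. These were CCR9 probe 2, CXCL8 probe 1, IL10 probe 1 and IL15 probes 2 and 4. IL1RN was marked on 2 of 7 newborn arrays. Its measured log2 levels were -6.69, -6.07 and -5.10 (lowest, median, highest) in fetal arrays and -5.14, -4.24 and -3.91 in newborn arrays, where 6 of 7 lay above every fetal array. With all 7 newborn arrays at their measured values, marked or not, its newborn mean was 1.18-fold higher than the fetal bound. An unmarked spot can lie above an array's lowest marked level, so this is not a strict lower limit. TLR2, which recognises bacterial lipoproteins as a pair with TLR1 or TLR6, was marked by probe 1, on 5 spots, on 4 of 7 newborn arrays. Its levels were -5.86, -5.45 and -5.09 in fetal arrays and -5.46, -4.34 and -3.97 in newborn arrays, and again 6 of 7 lay above every fetal array. By the same measure the newborn mean of TLR2 probe 1 was 1.11-fold higher, again not a strict lower limit.

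When a mark on at least 1 array was enough to enter the fit, IL1RN and TLR2 probe 1 also had an adjusted p under 0.05. With IL1B, 3 of the 34 that entered did, against 19% of all probes in that fit (9.71% higher in newborns). IL1RN and TLR2 probe 1 entered through newborn arrays only, so the filter and the difference are not independent and that fit lends no support to a change. With normexp on the median background, a setting added after seeing the data, the differences were 0.26 for IL1RN (adjusted p 0.0601) and 0.23 for TLR2 probe 1 (adjusted p 0.0574). With no filter 5 of the 67 probes were called, against 12.2% of all probes. The other two, TLR2 probe 2 and TLR5, were marked on no array, and no change is read from them.

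**Figure D3:**
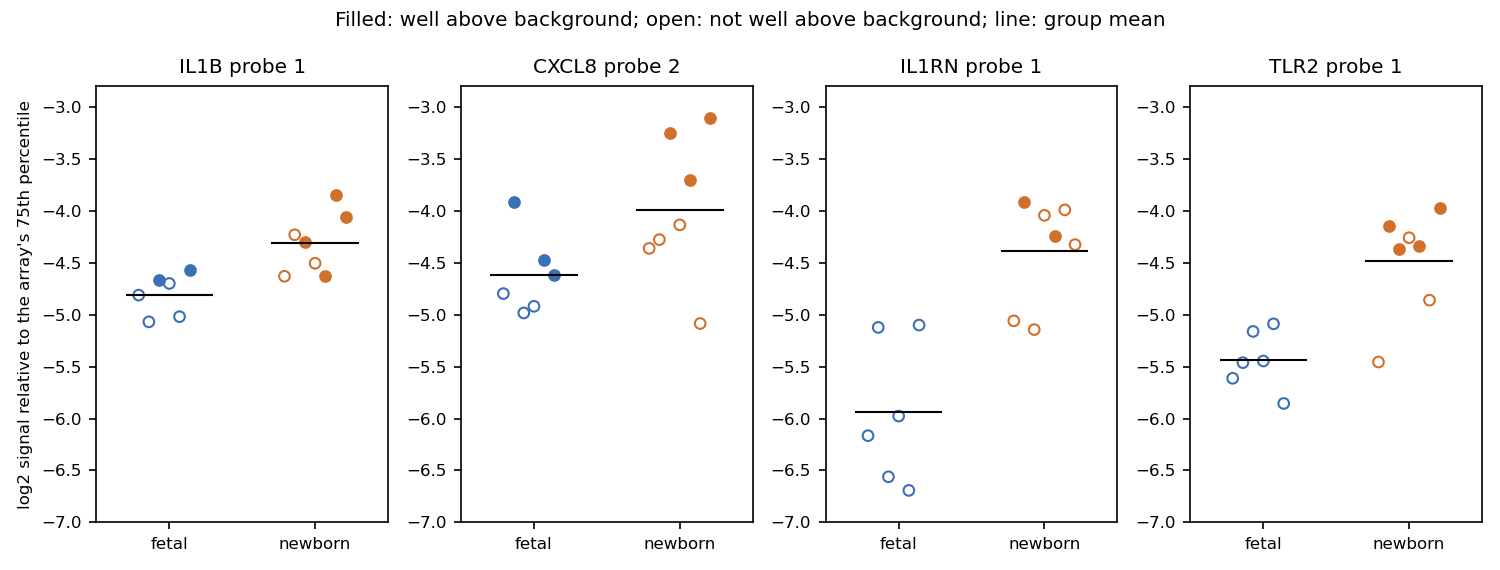
Log2 signal relative to the 75th percentile of the array for IL1B, CXCL8 probe 2, IL1RN and TLR2 probe 1 on 6 fetal and 7 newborn arrays, with a line at each group mean. Filled points are well above background, and none of the fetal points of IL1RN and TLR2 is filled.

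The other interleukins gave no call. IL3, a growth factor of blood cell precursors, was marked on 10 arrays. Its change was 0.13 (SE 0.123, adjusted p 0.467), from -4.38 to -4.26. IL10, an anti-inflammatory cytokine, was marked on newborn 4 only, where its probe 1 reached -3.84 against a newborn median of -5.93. IL1A, the other interleukin-1 form, was marked on 1 fetal and 3 newborn arrays by probe 1, IL12A on 1 of each by probe 2, and IL15, which sustains natural killer cells, on up to 3 arrays by the best of its 4 probes. IL2RA, the high-affinity chain of the IL-2 receptor, was marked on 3 fetal and 1 newborn array by probe 2.

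CXCL1 was read at very high signal, and its groups overlapped. The processed signal of probe 2 ran from 73647 to 110260 in fetal and from 83312 to 116393 in newborn arrays, with no saturated spot. Its log2 levels were 7.99, 8.31 and 8.44 (lowest, median, highest) in fetal and 8.16, 8.44 and 8.86 in newborn arrays. The change was 0.23 (SE 0.124, adjusted p 0.198), and that of probe 1 was 0.25 (SE 0.124, adjusted p 0.166). Probe 1 has no value on fetal 3, where the software marked its spot as an outlier. A probe's brightness is not an amount of transcript, and these probes differ by 1 base, so they are close to a single reading. What they bind in this tissue was not checked.

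CXCL8 probe 2 had the largest change among the 21 tested probes, without passing. Its log2 levels were -4.98, -4.71 and -3.91 in fetal and -5.09, -4.14 and -3.11 in newborn arrays. The newborn arrays held both the highest values and, on newborn 6, the lowest. The change was 0.63 (SE 0.285, adjusted p 0.121), and without newborn 6 it was 0.81 (adjusted p 0.0223). Probe 1, which shares 20 bases with it, was marked on newborn 7 only. CCL25 was marked on every array by both probes, and its changes were 0.10 (adjusted p 0.623) and -0.01 (adjusted p 0.979). The newborn arrays lay closely together on CCL25 probe 2, from -1.36 to -1.20, within the fetal range of -1.67 to -0.89.

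Among chemokine receptors, CCR10 was read by probes shifted by 1 base, marked on 11 and 13 arrays. Its changes were 0.28 (SE 0.199, adjusted p 0.33) and 0.15 (SE 0.138, adjusted p 0.456). Probe 1 gave 0.099 without fetal 2, and probe 2 gave 0.079 without fetal 5 or without newborn 4. CCR9, the CCL25 receptor, was marked on 1 newborn array, and CCR3, the eotaxin receptor, on none.

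Of the cytokine receptors 3 of 4 genes were marked on all 13 arrays. IFNAR1 had log2 levels of 1.81, 2.08 and 2.35 (lowest, median, highest) in fetal and 2.03, 2.21 and 2.72 in newborn arrays by probe 1. Its changes were 0.26 (SE 0.135, adjusted p 0.171) and 0.25 (SE 0.139, adjusted p 0.205) by the 2 probes. IFNAR2 changed by 0.18 with both probes (adjusted p 0.293 and 0.265). These are the chains of the type I interferon receptor, and the interval of each change includes 0.

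IL13RA1, a chain of the receptors for IL-4 and IL-13, had the lowest change among the 21 tested probes. By probe 2 its log2 levels were 0.25, 0.39 and 0.95 in fetal and -0.39, 0.13 and 0.62 in newborn arrays. Of the newborn arrays 5 of 7 lay below every fetal array. The change was -0.43 (SE 0.186, 95% interval -0.82 to -0.03, adjusted p 0.11 in limma), which did not pass. Neither of its ligands, IL4 and IL13, was marked on any array.

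Of the interferons, IFNG was marked on 3 fetal and 3 newborn arrays by probe 2 and changed by -0.14 (SE 0.287, adjusted p 0.752). IFN1, known here by its gene name in the file only, and IFNT, the trophoblast interferon by which the ruminant embryo signals pregnancy, were marked on no array.

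The TLRs fell into groups by detection. TLR3, which binds double-stranded RNA, was marked by probe 2 on all 13 arrays, at -3.33, -3.04 and -2.92 in fetal and -3.49, -2.64 and -2.40 in newborn arrays. It changed by 0.25 (SE 0.179, adjusted p 0.332), and by 0.29 with probe 1 (adjusted p 0.305). TLR4, the lipopolysaccharide receptor, was marked on 12 arrays and changed by 0.27 (SE 0.166, adjusted p 0.245), with 4 of 7 newborn arrays above every fetal array. TLR7, which binds single-stranded RNA, gave 0.47 with probe 1 (SE 0.252, adjusted p 0.186), with 2 of 7 newborn arrays above every fetal array, and 0.24 without fetal 5.

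TLR6 gave -0.17 (SE 0.231, adjusted p 0.613) and 0.01 (SE 0.248, adjusted p 0.971) with its first pair of probes, and the third was marked on 2 fetal arrays. No TLR probe of the 6 tested passed. Their 95% intervals all include 0 and reach as low as -0.67 (TLR6 probe 1) and as high as 1.01 (TLR7 probe 1). TLR5, TLR8 and TLR9, receptors for flagellin, single-stranded RNA and CpG DNA, and TLR1 were marked on no array.

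**Figure D4:**
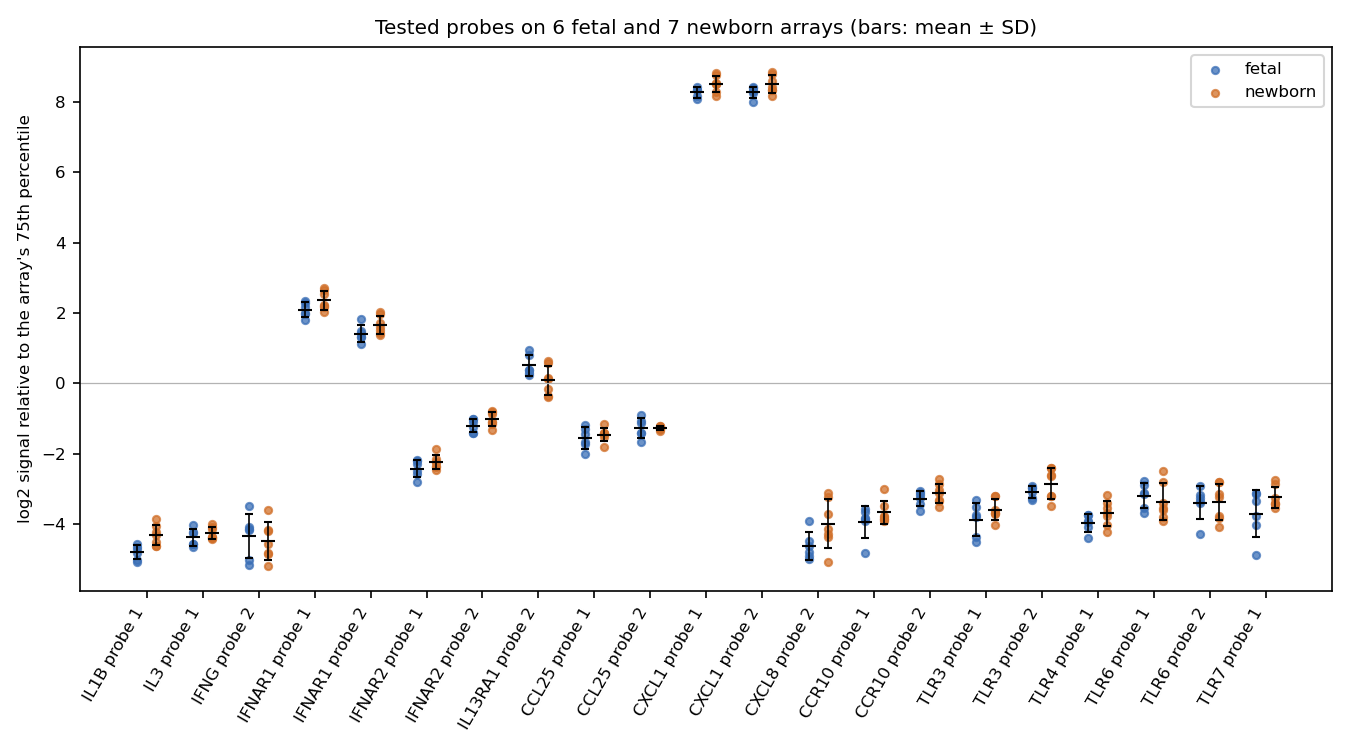
Log2 signal relative to the 75th percentile of the array for the 21 tested probes, with a point for each of 6 fetal (blue) and 7 newborn (orange) arrays (5 fetal for CXCL1 probe 1) and bars for mean ± SD, grouped by role. The groups overlap for every probe, and probe heights are not comparable amounts of transcript.

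Age by sex was tested on all 13 arrays, with 2 females in the fetal group. In limma 0 of 10255 probes passed for the product of these terms, while 507 had an unadjusted p under 0.05, and IL1B had an adjusted p of 0.9865.

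The other genes of these pathways come from lists written with the members, with earlier results of these data known. Only 1642 of 15008 probes could be given a single gene name, so each list is a part of its pathway. Each list gene was read by its brightest tested probe in the main fit only, so its other probes and the other settings are not shown. The counts below are of genes and stand against 12% of all tested probes called higher and 11.1% called lower in newborns. In the tumour necrosis factor family 3 of 4 tested genes rose and 0 fell, with a median log2 change of 1.21. TNF, the central inflammatory cytokine, rose by 1.75 (adjusted p 0.00459), CD40, a co-stimulatory receptor, by 0.99 (adjusted p 0.00364) and FAS, a death receptor, by 1.43 (adjusted p 0.0352). TNF and FAS were each marked on 2 fetal arrays, against 6 and 5 newborn arrays. Both met the filter of 6 arrays mainly through newborn arrays, so for them the filter and the difference are not independent. The count of 3 includes both. Of TLR and IL-1 signalling genes 2 of 3 rose, with CD14, the lipopolysaccharide co-receptor, at 0.66 (adjusted p 0.0164) and the adaptor TRAF3 at 0.66 (adjusted p 0.0487), while IRAK4 gave -0.19 (adjusted p 0.541). TRAF3 was marked on 3 fetal and 6 newborn arrays, so it too met the filter mainly through newborn arrays.

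The NF-kappa-B inhibitor NFKBIA, the only tested gene of its list, fell by 1.08 on the log2 scale (adjusted p 0.00246). Among interferon regulatory factors 1 of 3 rose, IRF1 by 0.94 (adjusted p 0.00674), and IRF2 and IRF3 gave -0.20 and -0.14. Among other cytokines and their receptors 1 of 9 rose, a share near the 12% of all tested probes. It was the receptor chain TGFBR2, by 0.48 (adjusted p 0.00584), and TGFB1 gave -0.33 (adjusted p 0.0787). XCL1, the only other chemokine tested, gave 0.16 (adjusted p 0.558).

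Markers of immune cells differed between the groups too, and their part in the results above was not tested. Of 4 tested macrophage and monocyte markers 3 rose, against 12% of all tested probes, with FCGR1A, marked on 2 fetal and 7 newborn arrays, at 2.07 (adjusted p 0.000774), FCER1G at 0.76 (adjusted p 0.00921) and CD14 as above, and LYZ gave 0.68 (adjusted p 0.277). Their summed level, relative to the 75th percentile, was 0.736 to 1.099 in fetal and 1.07 to 2.35 in newborn arrays. This sum weighs bright genes most. The lowest log2 level of FCER1G was -0.83, while those of CD14, FCGR1A and LYZ were -3.84, -5.94 and -6.24. ITGAM, also on the macrophage and monocyte list, had a named probe that was not tested. Of 3 tested T and natural killer cell markers 2 fell, against 11.1% of all tested probes, CD3E with -2.07 and CD3D with -1.63 (adjusted p 0.00228 and 0.00184), while CD5 gave 0.03. Their sum was 0.252 to 0.708 in fetal and 0.0871 to 0.224 in newborn arrays. CD3D was marked on 5 fetal and 2 newborn arrays, and LYZ on 3 fetal and 3 newborn arrays. FCGR1A met the filter mainly through newborn arrays and CD3D mainly through fetal arrays. For these genes the filter and the difference are not independent. Of the neutrophil list LTF alone had a named probe, which was not tested, and of the B cell list 0 genes did.

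The other cell lists were thin. The red cell genes HBB and AHSP fell, with -1.53 and -1.73 (adjusted p 0.00615 and 0.0447). AHSP was marked on 5 fetal and 2 newborn arrays, so it met the filter mainly through fetal arrays. The endothelial genes PECAM1 and KDR fell, with -0.51 and -0.46 (adjusted p 0.00869 and 0.0233). Of 3 fibroblast and smooth muscle genes CNN1 rose by 1.83 (adjusted p 0.00729), COL3A1 fell by 0.37 on the log2 scale (adjusted p 0.0469) and DCN gave -0.19. The mast cell marker FCER1A gave 0.50 (adjusted p 0.201) and the cardiomyocyte marker MB gave -0.34 (adjusted p 0.139).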

How the data were processed

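Each of the 13 deposited files holds 1-colour spot intensity from Agilent Feature Extraction 10.1.1.1, per the file headers. Its processed signal is an intensity after background subtraction and within-array detrending, per the file headers. The deposited series value matrix holds, judged from its values, log2 signals of 7041 probes, with 9 of the 67, whose scale and normalization are not given in the sources used here. Its column medians lay between 8.69 and 8.70, each column correlated best with its own array, and it was an alternative only. No column belonged to another sample (0 left out). The design text speaks of 7 fetuses and 7 newborns, and 6 and 7 samples were analysed here.

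Control and outlier spots were left out and each probe's spots averaged. A probe was well above background where at least 50% of its spots carried the software's mark. The value used was log2 of the processed signal minus the array's 75th percentile. Probes marked on at least 6 arrays were fitted with lmFit and eBayes of limma 3.58.1 (R 4.3.3), with two-sided p-values adjusted by Benjamini-Hochberg across all 10255 probes at a threshold of 0.05. Where every array of a group was below background, the fold is the bright group's mean over the dim group's mean, with each dim array at the higher of its own value and its lowest value well above background. The count of marked probes was compared by an exact permutation test. Genes were named from the files and RefSeq (59 of the 67 probes matched).

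Every member gene is named, every tested probe is given with its change, and up to 4 members of each list with the smallest p. A gene of the pathway lists is not reported here. The members and lists were chosen with earlier results of these data known. The steps were tested on simulated data. The alternatives tried were normexp (offset 50), other scalings and filters, terms for slide, sex, animal and replicate number, eBayes with trend and robust settings, and leaving out each array. Numbers 1 to 6 in the sample titles did not pair the samples. Tables used pandas 2.3.3 and numpy 2.4.6 under Python 3.11.15, and plots matplotlib 3.10.9.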

Additional observations from a re-analysis of the deposited data

Results flagged for a closer look

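In the 42 groups of arrays checked (21 tested probes in each of 2 age groups) 2 held an array far from the others, and chance gives about 1 in 20, or 2.1. CCR10 probe 1 was at -4.83 on fetal 2, and the nearest other fetal array was at -3.93. TLR6 probe 2 was at -4.28 on fetal 1, and the nearest other fetal array was at -3.41.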

How the results depend on the processing

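IL1B kept its direction in 26 of 26 alternatives and passed in 19 of them, with changes of 0.01 to 0.54. The number of the 67 probes that passed (1) was 0 with normexp on each spot's background, with the series value matrix, which lacks IL1B, with a mark required on all 13 arrays, which leaves IL1B out, within slide 1, within slide 2 and with the trended and robust eBayes, where the IL1B adjusted p was 0.0724. It was 3 with a mark on at least 1 array and 5 with no filter (12.2% of all probes in that fit), 4 of these 5 without a mark on any fetal array, and 0 to 2 with an array left out. With normexp on the median background the count stayed at 1, but the probe that passed was CXCL8 probe 2 (0.25, adjusted p 0.0232). IL1B did not pass there (adjusted p 0.147). Over all tested probes 2366 passed, 48 with normexp on each spot's background, 356 within slide 1, 23 within slide 2, and 1727 to 3116 with an array left out. Except for normexp on the spot background, those settings test fewer arrays. With the positive-and-significant mark in place of well above background 43 of the 67 probes were marked on at least 6 arrays instead of 21. With well above background 34 were marked on at least 1 array and 11 on all 13.

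The numbers in the titles did not pair the samples, with correlations of same-numbered arrays between -0.07 and 0.05, and 1 of 6 numbers matched best with its own. With the replicate block IL1B changed by 0.45 (adjusted p 0.0470), 1 of the 67 probes passed, and 1326 of all probes did.

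Small changes, none of which passed, turned direction, and the cause was not tested. CCL25 probe 2 (-0.01) gave 0.021 with normexp on the median background, 0.015 with slide as a block, 0.15 within slide 2, 0.043 with sex, 0.0011 with the replicate block, 0.0021 with animal number, 0.048 as the mean of the probes, and -0.087 to 0.069 with an array left out. TLR6 probe 2 (0.01) gave -0.0032 with normexp on each spot's background, -0.012 with quantile normalization, -0.047 with slide as a block, -0.14 within slide 2, -0.0059 with animal number, and -0.16 to 0.13 with an array left out. IFNG probe 2 gave 0.048 with normexp on the median background, 0.068 within slide 1 and -0.30 to 0.030 with an array left out. IL3 gave -0.048 with normexp on each spot's background and -0.056 within slide 1, CCR10 probe 2 gave -0.016 within slide 1, and TLR3 probe 1 gave -0.15 within slide 2.

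For IL1RN and TLR2 probe 1, settings combined with the filter of at least 1 array were chosen after seeing the data. With normexp on each spot's background neither passed (0.09 and 0.05, adjusted p 0.9999 for both). Signals near background limit all of these calls.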
